A study of Mus musculus with 14 samples.

Results

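The BCL2 family decides at the outer mitochondrial membrane whether a stressed cell lives or dies. Its survival members, among them BCL2, BCL-XL (the gene Bcl2l1) and MCL1, hold the pore-forming members BAX and BAK1 in check. The BH3-only members, which share only a short helical domain with the rest, are made or activated under stress and bind the survival members or activate the pore formers. Early thymocytes depend on this balance, since interleukin 7 keeps them alive through BCL2 and MCL1 and cells that fail to rearrange a T cell receptor gene die. In this series 10 genes of the family were followed: the survival genes Bcl2, Bcl2l1 and Mcl1, the pore former Bak1, and the BH3-only genes Bcl2l11 (BIM), Bmf, Bik, Bid, Bad and Hrk. The scanner tables hold no column of gene names, so the members were found through the RefSeq accession of each non-control probe. That match gave 14 probes for the 10 genes, of 55681 probes and 21378 named genes on the array.

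The 14 arrays are 1-colour Agilent mouse arrays of immature thymocytes that lack CD4 and CD8, with a C57BL/6 strain label. Bone marrow of Cre-ERT2 mice (called WT), Ezh2flox/flox;Cre-ERT2 mice, p53flox/flox;Cre-ERT2 mice or Ezh2flox/flox;p53flox/flox;Cre-ERT2 mice had been given to lethally irradiated CD45.1+ wild-type recipients, so the WT cells carry the inducible Cre recombinase too. Ezh2, the methyltransferase of Polycomb repressive complex 2, and p53 (the gene Trp53), the stress-response transcription factor, were deleted 4 weeks after transplantation. Cells at 3 stages, CD44+CD25- cells (DN1), the CD44+CD25+ cells that follow (DN2) and CD44-CD25+ cells (DN3), were sorted from the thymus of the recipients 3 months after transplantation, with 1 array for each of 4 genotypes and 3 stages. The other 2 arrays hold DN2 leukemic cells of 2 mice, numbered 13 and 19, in which an early T cell precursor leukemia, ETP-ALL, arose after deletion of both genes, for which no time is stated. The sources do not give the animals' ages, the promoter that drives the Cre, the inducing agent or whether the recipients' own cells were kept out of the sorts, and the sorting text speaks of bone marrow where the design and sample labels say thymus. Whether each sort used its own mouse, a shared mouse or a pool is not stated, so a p-value here measures only how well these arrays agree.

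Every level below is log2 of the processed signal relative to the 75th percentile of its array, and levels of different probes are not compared. Differences come from a limma fit of genotype plus stage over the 12 non-leukemic arrays, given as log2 difference ± SE, so each genotype has 3 arrays (1 per stage) and each stage 4 (1 per genotype). "Called" means an adjusted p under 0.05 after Benjamini-Hochberg adjustment over 26909 features. The spread of a genotype over its stages and of a stage over the genotypes is what stands in for replicate error. Array slides run with genotype: WT and 2 double-deleted arrays (DN2 and DN3) share slide 1, all Ezh2-deleted and p53-deleted arrays lie on slide 2, double-deleted DN1 on slide 3 and both leukemias on slide 4. The 6 arrays of slide 2 were also dimmer, with a 75th percentile of 61.3 to 123 in processed signal against 271 to 524 on the other 8 arrays. Genotype and slide therefore cannot be told apart when Ezh2-deleted or p53-deleted cells are set against WT or double-deleted cells. T lineage RNA was present throughout: 12 of 12 T lineage markers were well above background on 13 arrays and 11 of 12 on the array of leukemia 13. These markers mix genes of several stages, so their detection checks no stage label and does not exclude other cells. The Trp53 probe was above background on 3 of 3 WT arrays and on 0 of 3 p53-deleted arrays, at least 21.4-fold lower, and in the double-deleted DN1, DN2 and DN3 arrays it read 6.27%, 9.28% and 21.7% of WT at the same stage. The Ezh2 probe read 61.5% to 134% of WT in Ezh2-deleted cells and 75% to 278% in double-deleted cells, and since its position relative to the deleted part is not given, it checks no label. In bulk RNA such as this, fewer cells that express a gene and less RNA per cell cannot be told apart.

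**Figure D1:**
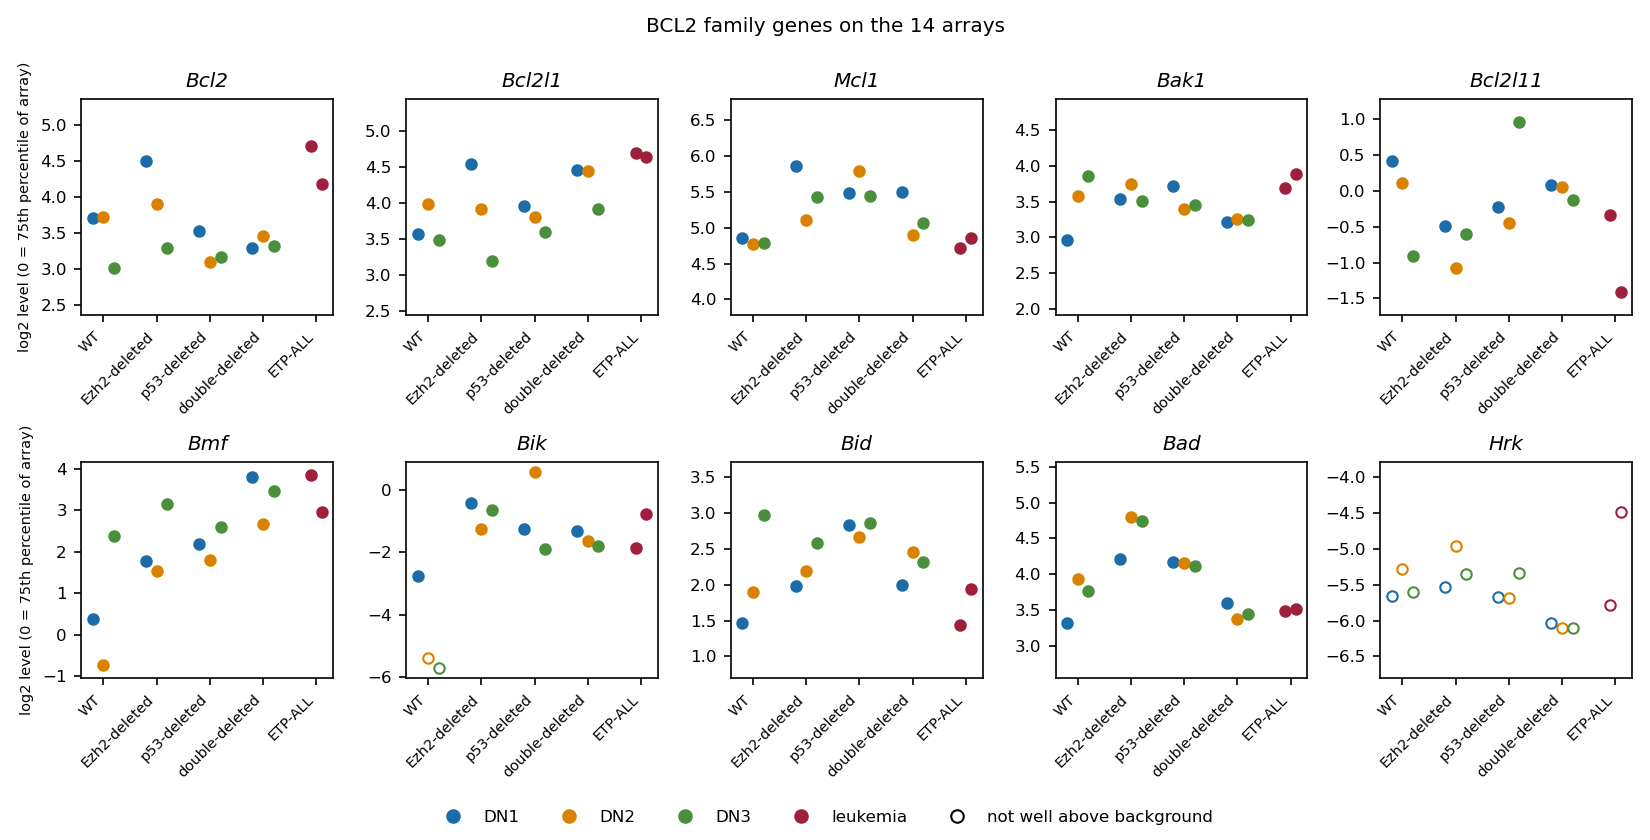
Level of each of the 10 genes on the 14 arrays (log2 of the processed signal relative to the array's 75th percentile, each panel with its own vertical range), by genotype and leukemia, coloured by stage. Open circles are probes not well above background. Bmf and Bik sit lowest in WT cells, both leukemias lie above all double-deleted arrays for Bcl2, and Hrk is open on every array.

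Bmf, a BH3-only protein that is held on the cytoskeleton and released to neutralise the survival members, was higher than WT in all 3 deletion genotypes. Its level in WT cells was 0.38 at DN1, -0.74 at DN2 and 2.38 at DN3. In Ezh2-deleted cells it was 1.79, 1.53 and 3.16 in the same order of stages. The p53-deleted arrays read 2.20, 1.80 and 2.59 and the double-deleted arrays 3.81, 2.68 and 3.46. At each stage every deleted genotype lay above WT, and the double-deleted arrays lay entirely above the WT arrays, while the single-deleted ranges overlapped WT through its high DN3 array. The difference from WT was 1.48 ± 0.47 in Ezh2-deleted cells (adjusted p = 0.0362, limma), 1.52 ± 0.47 in p53-deleted cells (adjusted p = 0.0319) and 2.64 ± 0.47 in double-deleted cells (adjusted p = 0.0149), which is 2.80-, 2.87- and 6.24-fold.

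Split by stage, the difference of Bmf from WT was widest before DN3. In double-deleted cells it was 3.43 at DN1, 3.42 at DN2 and 1.08 at DN3, from single arrays and so without a test. In p53-deleted cells the same values were 1.82, 2.53 and 0.21, and in Ezh2-deleted cells 1.41, 2.26 and 0.78. Double-deleted cells had more Bmf signal than either single deletion at each stage, by 1.16 ± 0.47 over Ezh2-deleted cells (adjusted p = 0.0904) and 1.12 ± 0.47 over p53-deleted cells (adjusted p = 0.0970), neither of which was called. With normexp background correction and quantile normalization both were called (1.25, adjusted p = 0.0238, and 1.13, adjusted p = 0.0332), and the first also when arrays were scaled on probes detected on all of them (1.35, adjusted p = 0.0446). Both were also called without WT DN3 (adjusted p = 0.0320 and 0.0345). Ezh2-deleted and p53-deleted cells differed by -0.04 ± 0.47, with a 95% interval of -1.09 to 1.02.

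Which Bmf differences were called depended on single arrays. Against WT, the Ezh2-deleted difference ranged from 1.06 to 2.08 when each array was left out, and its call was lost without Ezh2-deleted DN1 (adjusted p = 0.0539), DN2 (0.113) or DN3 (0.115), WT DN1 (0.123) or DN2 (0.150), or double-deleted DN2 (0.0530). The p53-deleted difference ranged from 1.09 to 2.12 and lost its call without WT DN1 (adjusted p = 0.108) or DN2 (0.135) or p53-deleted DN1 (0.0824) or DN2 (0.110). In double-deleted cells the range was 2.21 to 3.24, with the call lost without WT DN1 (adjusted p = 0.0621) or DN2 (0.0631) or double-deleted DN1 (0.0719) or DN2 (0.0837). The Bmf difference was positive in every such fit. With no filter on dim probes the Ezh2-deleted and p53-deleted calls also ended (adjusted p = 0.0586 and 0.0513), as did the Ezh2-deleted call when arrays were scaled on probes detected on all of them (1.25, adjusted p = 0.0521). Within slide 1, which holds WT and double-deleted cells together, Bmf was 2.25 higher in double-deleted cells (adjusted p = 0.199). With slide as a fixed term it was 2.28 higher (adjusted p = 0.0719). Double-deleted DN1 is alone on slide 3, so the fixed term repeats the fit without that array and is no separate check.

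The RefSeq table of GRCm38.p6 gives Bmf 3 start sites on the minus strand of chromosome 2. The 250 bases before the most upstream one (chr2:118549687-118549936) are shown beside those before the start of Bcl2 (chr1:106714291-106714540, minus strand), because Polycomb repressive complex 2 is known to act at start sites rich in CG dinucleotides and the members differ widely in that feature. CG dinucleotides are in capitals and each window reads 5′ to 3′ towards the start.

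Bmf: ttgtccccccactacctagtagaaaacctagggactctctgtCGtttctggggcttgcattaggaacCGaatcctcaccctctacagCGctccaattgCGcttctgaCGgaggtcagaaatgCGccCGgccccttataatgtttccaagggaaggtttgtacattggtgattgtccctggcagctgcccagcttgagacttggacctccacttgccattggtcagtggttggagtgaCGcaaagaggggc
Bcl2: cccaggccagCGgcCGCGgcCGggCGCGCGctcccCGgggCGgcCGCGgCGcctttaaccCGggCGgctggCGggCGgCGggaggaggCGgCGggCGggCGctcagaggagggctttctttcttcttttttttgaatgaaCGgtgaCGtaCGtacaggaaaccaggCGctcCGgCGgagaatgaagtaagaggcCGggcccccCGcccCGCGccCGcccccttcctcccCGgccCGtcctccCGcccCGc

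The Bmf window holds 8 CG dinucleotides, more than 57.0% of the 32851 windows of that length in the table, and the windows before its other start sites hold 5 and 3. The Bcl2 window holds 36, more than 97.4% of all windows, against a median of 6. Of the 9 members with an entry, Mcl1 (26) and Bcl2l11 (24 and 30) are also CG-rich, while Bak1 holds 8 and the 3 Bcl2l1 windows hold 0, 11 and 12. Bad, Bid and Hrk lie between, at 18 to 21. The 15 member windows were also searched on both strands for TTCNNNGAA, the core that STAT5 binds (in 7.02% of all windows), for GTAAACA, a FOXO core (3.17%), and for CACGTG, the E-box that MYC binds (6.02%). The single match was GTAAACA in the upstream Bcl2l11 window. These are properties of the reference sequence and no binding or methylation was measured in this series.

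Bik, a BH3-only protein of the endoplasmic reticulum, was called higher than WT in each deletion genotype. It was well above background in WT cells at DN1 only, at -2.75, and its WT readings at DN2 (-5.40) and DN3 (-5.72) were not. In Ezh2-deleted cells it read -0.41, -1.26 and -0.64 at DN1, DN2 and DN3. The p53-deleted arrays read -1.26, 0.58 and -1.91 and the double-deleted arrays -1.33, -1.65 and -1.79. All 9 deleted arrays were above background and above all 3 WT arrays. The fitted differences from WT were 3.85 ± 0.74 in Ezh2-deleted (adjusted p = 0.00439, limma), 3.76 ± 0.74 in p53-deleted (adjusted p = 0.00440) and 3.04 ± 0.74 in double-deleted cells (adjusted p = 0.0438).

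The size of the Bik differences rests on WT signals that carry only an upper limit. At DN1, where WT was measured, the deleted genotypes were 5.04-, 2.81- and 2.68-fold higher (Ezh2-deleted, p53-deleted, double-deleted). Against the lowest signal of any probe above background on the WT array, the same genotypes were at least 3.69-, 13.2- and 2.82-fold higher at DN2 and at least 7.91-, 3.29- and 3.57-fold higher at DN3. With another background correction (normexp, quantile) the 3 fitted differences shrank to 1.46 (adjusted p = 0.0109), 1.50 (adjusted p = 0.00880) and 0.94 (adjusted p = 0.129). That correction adds an offset of 50 to each signal, and the processed WT signals of Bik were 5.24 to 40.7. Such an offset narrows log2 differences between dim signals by construction, and its part in the shrinkage was not tested.

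Leaving out each of the 12 arrays in turn kept the Bik call in Ezh2-deleted cells (3.31 to 4.75) and p53-deleted cells (2.82 to 4.67) every time. In double-deleted cells the difference stayed between 2.50 and 3.94 but the call was lost in 9 of 12 such fits, those without Ezh2-deleted DN1, DN2 or DN3 (adjusted p = 0.0579 to 0.0606), WT DN2 (0.150) or DN3 (0.0918), double-deleted DN1 (0.119), DN2 (0.150) or DN3 (0.127), or p53-deleted DN3 (0.0558). Scaling on probes detected on all arrays (adjusted p = 0.0747) and no filter on dim probes (0.0593) ended this Bik call too. Slide as a fixed term (3.21, adjusted p = 0.119) repeats the fit without double-deleted DN1 and is no separate check. Within slide 1 the Bik difference was 3.84 (adjusted p = 0.0308). Against each other the deleted genotypes showed no called Bik difference, with Ezh2-deleted minus p53-deleted at 0.09 and a 95% interval of -1.58 to 1.76.

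Marker genes of other cells were read on the same arrays. The summed level of 6 dendritic cell genes, relative to the 75th percentile, was 365 to 475 in WT cells. It was 116 to 244 with Ezh2 deleted, 152 to 183 with p53 deleted and 246 to 266 with both deleted, with 3 to 6 of the 6 above background. Siglech made up 95.9% to 99.4% of this sum in WT, so the lower sums follow that gene, and the median of the 6 differences from WT was 0.93, 0.87 and 0.30 in the 3 deletion genotypes. Without Siglech the sum was 2.46 to 19.7 in WT and 3.59 to 142 in Ezh2-deleted cells. The sum of 6 myeloid genes was 50.5 to 117, 22.6 to 113, 19.7 to 27.4 and 34.9 to 59.9 in the same order, with 3 to 6 above background and median differences from WT of -0.62, -1.91 and -0.75. For 6 NK genes the sums were 60.3 to 405, 532 to 768, 183 to 611 and 238 to 722, with 1 to 6 above background. Gzma made up 69.9% to 100% of the NK sum on these 12 arrays, and the median of the 6 differences from WT was 1.66, 1.17 and -0.98. Few of these genes were called against WT. In the same 3 genotypes 1, 1 and 0 of 6 dendritic genes were, all lower, and 2, 4 and 1 of 6 myeloid genes, all lower. Of the 6 NK genes 1, 1 and 0 were, all higher. Of all features 35.4%, 36.6% and 7.18% were called. The part of these other cells in the Bmf and Bik differences was not tested.

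**Figure D2:**
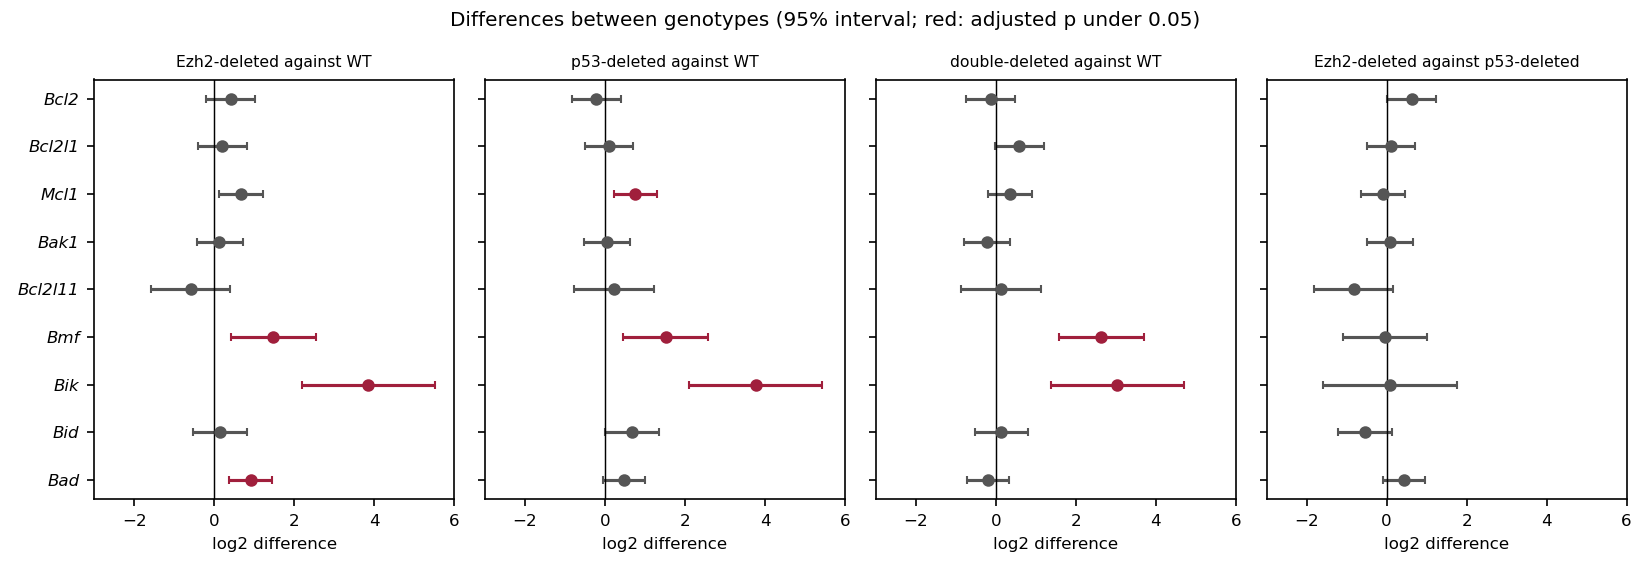
Log2 difference of the 9 tested members between genotypes, with the 95% interval of the limma fit over 12 arrays, for each deletion genotype against WT and for Ezh2-deleted against p53-deleted cells. Red marks an adjusted p under 0.05: Bik and Bmf against WT in all 3 panels, Bad in Ezh2-deleted and Mcl1 in p53-deleted cells, and no member in the last panel.

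Bad, a BH3-only protein that growth factor signalling inactivates by phosphorylation, was called higher in Ezh2-deleted cells. Its brighter probe read 4.22, 4.80 and 4.75 at DN1, DN2 and DN3 there, against 3.32, 3.94 and 3.77 in WT, without overlap. The p53-deleted arrays read 4.17, 4.16 and 4.12 and the double-deleted arrays 3.60, 3.38 and 3.45. The Ezh2-deleted cells were 0.91 ± 0.23 above WT (adjusted p = 0.0158, limma), and the double-deleted minus Ezh2-deleted difference was -1.11 ± 0.23 (adjusted p = 0.00802). The dimmer Bad probe, above background on 14 of 14 arrays, gave 0.15 ± 0.28 (adjusted p = 0.691) and -0.13 (adjusted p = 0.743) for these comparisons. The call against WT was lost without Ezh2-deleted DN2 (0.84, adjusted p = 0.0642) or DN3 (0.84, 0.0665) or WT DN1 (0.77, 0.0593), and the call against Ezh2-deleted cells without double-deleted DN2 (-0.98, 0.0530). The double-deleted minus p53-deleted difference, -0.67 ± 0.23 (adjusted p = 0.0555), was just outside the threshold. It became called without WT DN1 (0.0482) and under 5 other settings (0.0282 to 0.0471). The lowest of these came with slide as a random term, which cannot separate slide from genotype here because these cells share no slide.

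Mcl1, a short-lived survival protein that T cell precursors need at every stage, was called higher in p53-deleted cells by 1 of its 2 probes. The brighter probe read 4.86, 4.77 and 4.79 in WT, 5.86, 5.11 and 5.43 in Ezh2-deleted, 5.48, 5.79 and 5.44 in p53-deleted and 5.50, 4.90 and 5.07 in double-deleted cells. All 9 deleted arrays lay above all 3 WT arrays, which lay between 4.77 and 4.86. The difference from WT was 0.76 ± 0.24 in p53-deleted cells (adjusted p = 0.0360, limma), 0.66 ± 0.24 in Ezh2-deleted cells (adjusted p = 0.0609) and 0.35 ± 0.24 in double-deleted cells (adjusted p = 0.381). The Ezh2-deleted difference became called with slide as a random term (0.68, adjusted p = 0.0220), with a filter of at least 7 arrays above background (0.66, 0.0456) and without p53-deleted DN1 (0.0476) or DN2 (0.0426). Ezh2-deleted and WT cells share no slide, so the random term cannot separate slide from genotype. With it the calls over all features rose from 9526 to 12506.

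The second Mcl1 probe, above background on all 14 arrays, went against this pattern. It read 3.99, 3.73 and 3.59 in WT and 3.68, 3.83 and 3.60 in p53-deleted cells, a difference of -0.06 ± 0.31 (adjusted p = 0.886). In Ezh2-deleted cells it read 3.92, 2.39 and 3.04, a difference of -0.66 ± 0.31 (adjusted p = 0.126), opposite in sign to the brighter probe. The call by the brighter probe was lost in 8 of 12 fits that left out 1 array, with differences of 0.55 to 0.94 over all 12 and a lowest value without p53-deleted DN2 (adjusted p = 0.130). The other arrays whose omission ended it were WT DN1 (0.104), DN2 (0.0857) and DN3 (0.0638), p53-deleted DN3 (0.0719), Ezh2-deleted DN3 (0.0557), and double-deleted DN2 (0.0546) and DN3 (0.0597). The call also ended under scaling on probes detected on all arrays (adjusted p = 0.0707), quantile normalization (0.0653) and no filter on dim probes (0.0550).

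Bcl2l1, whose main product BCL-XL is best known for the survival of CD4+CD8+ thymocytes, also depended on the probe. Its brighter probe read 3.57, 3.99 and 3.49 in WT, 4.55, 3.92 and 3.19 in Ezh2-deleted, 3.96, 3.81 and 3.59 in p53-deleted and 4.46, 4.45 and 3.91 in double-deleted cells. The ranges overlapped, and the differences from WT were 0.20 ± 0.27, 0.10 ± 0.27 and 0.59 ± 0.27, none called. With normexp and quantile normalization double-deleted cells were called above Ezh2-deleted (0.73, adjusted p = 0.0291) and p53-deleted cells (0.67, adjusted p = 0.0379). The dimmer probe read -2.36, -2.07 and -3.80 in WT, the last not above background, and -1.71 to -1.02 in the Ezh2-deleted arrays. In p53-deleted cells it read -1.51 to -0.61 and in double-deleted cells -2.23 to -1.0. With it the differences were 1.29 ± 0.33 (adjusted p = 0.0159, limma), 1.77 ± 0.33 (adjusted p = 0.00352) and 1.16 ± 0.33 (adjusted p = 0.0682). Per the array's annotation the brighter probe matches 2 RefSeq transcripts of the gene and the dimmer probe 1 of them.

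**Figure D3:**
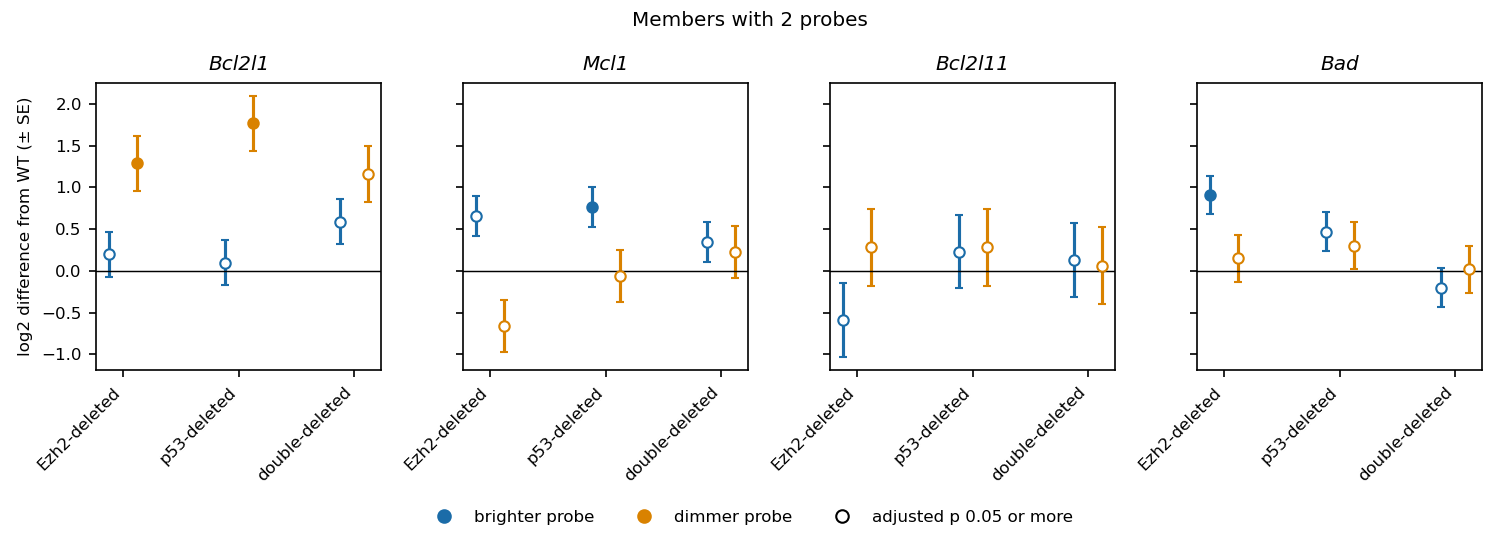
Log2 difference from WT (± SE of the limma fit) by the brighter and the dimmer probe of the 4 members with 2 probes above background, for each deletion genotype. Filled points have an adjusted p under 0.05; in no gene and genotype were both probes filled, and the Mcl1 probes lie on opposite sides of 0 in Ezh2-deleted cells.

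Bcl2, the survival protein that interleukin 7 signalling maintains, showed no called genotype difference. It read 3.71, 3.73 and 3.02 in WT at DN1, DN2 and DN3, 4.50, 3.90 and 3.29 in Ezh2-deleted, 3.53, 3.10 and 3.17 in p53-deleted and 3.29, 3.46 and 3.32 in double-deleted cells. The Ezh2-deleted arrays were highest at each stage except that double-deleted DN3 was slightly higher, and the WT and deleted ranges overlapped. Ezh2-deleted cells were 0.63 ± 0.27 above p53-deleted cells on the slide they share (adjusted p = 0.241), with a 95% interval of 0.02 to 1.24. The 3 named genes whose level followed Bcl2 most closely over the 12 non-leukemic arrays were Rasl12 (Pearson r = 0.907), Nccrp1 (0.890) and Swap70 (0.890). For Mcl1 they were Atp7a (0.969), Clcn4 (0.967) and Rnf103 (0.952), and for Bcl2l11 Zfp948 (0.874), Usp24 (0.850) and Tead2 (0.850), all chosen as the highest of the named genes on arrays that share slides and scale.

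Bcl2l11 encodes BIM, a BH3-only protein known as a main mediator of thymocyte death, and it varied without a called difference. It read 0.41, 0.11 and -0.91 in WT, -0.49, -1.08 and -0.60 in Ezh2-deleted, -0.22, -0.45 and 0.96 in p53-deleted and 0.08, 0.05 and -0.13 in double-deleted cells. From DN2 to DN3 the WT level by this brighter probe was lower and the p53-deleted level higher, with 1 array each. The other probe rose in both, from -1.50 to -0.78 in WT and from -0.70 to -0.26 in p53-deleted cells. The fitted differences from WT by the brighter probe were -0.59 ± 0.44, 0.23 ± 0.44 and 0.13 ± 0.44. The other Bcl2l11 probe gave 0.28 ± 0.46 for Ezh2-deleted cells, so even the direction was not shared between the probes.

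Bid, which caspase 8 cleaves to link death receptors to mitochondria, read 1.46, 1.90 and 2.97 in WT and 2.83, 2.67 and 2.86 in p53-deleted cells. The p53-deleted difference of 0.68 ± 0.30 was not called (adjusted p = 0.103, limma), but without WT DN3, the highest array of all 12, it was 1.03 (adjusted p = 0.0163). It was also called with normexp and quantile normalization (0.58, adjusted p = 0.0358) and with slide as a random term (0.68, adjusted p = 0.0470). The random term cannot separate slide from genotype for this pair either. Bid differed from WT by 0.14 ± 0.30 in both Ezh2-deleted and double-deleted cells. Bak1, a pore former, read 2.96 to 3.85 over the 12 arrays, with its double-deleted readings at 3.21, 3.25 and 3.24. Its differences from WT were 0.13, 0.05 and -0.23, each ± 0.25, and the 95% intervals kept each change between -0.80 and 0.71. Hrk, a BH3-only gene known mainly from neurons, was not well above background on any of the 14 arrays (-6.11 to -4.48) and was not tested, which leaves 9 of 10 members tested in each comparison.

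Read against all features, the share of members called lay near that of the whole array in the single deletions. In Ezh2-deleted cells 3 of 9 tested members were called (Bik, Bmf and Bad, all higher), where 35.4% of all features were called and 17.6% were called higher. In p53-deleted cells 3 of 9 (Bik, Bmf and Mcl1, all higher) were called, where 36.6% of features were and 16.7% were higher. In double-deleted cells 2 of 9 were called, Bik and Bmf, both higher, where 7.18% of features were and 3.72% were higher. The median difference of the 9 members from WT was 0.41, 0.47 and 0.14 in these genotypes, against 0.16, 0.09 and -0.11 over all features. In the same order 3, 3 and 3 of the 9 members had levels that did not overlap those of WT, where 39.5%, 44.2% and 31.8% of all features did not. Between deleted genotypes, 0 of 9 were called for Ezh2-deleted against p53-deleted (3.97% of all features). At an unadjusted p under 0.05 it was 1 member, Bcl2, where 19.4% of features were. For double-deleted against Ezh2-deleted 1 of 9 was called (Bad lower, where 30.8% of features were called and 17.1% were lower). For double-deleted against p53-deleted 0 of 9 were called in limma (31.6% of features), and 2 members, Bad and Bmf, had an unadjusted p under 0.05, where 43.9% of features did. These comparisons share arrays with one another, the WT arrays above all.

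Across stages no member was called by limma. From DN1 to DN2, where cells commit to the T lineage, 0 of 9 members were called (1.39% of all features) and 0 had an unadjusted p under 0.05, where 19.8% of features did. From DN2 to DN3, 0 of 9 were called (0.0223% of all features) and 1 had an unadjusted p under 0.05, where 6.34% did. That member was Bmf, which was higher at DN3 than at DN2 in 4 of 4 genotypes: by 3.12 in WT, 1.63 in Ezh2-deleted, 0.79 in p53-deleted and 0.78 in double-deleted cells. The fitted step was 1.58 ± 0.40 (unadjusted p = 0.00367, adjusted p = 0.393). It was 1.95 within slide 1 and 1.21 within slide 2, and it ranged from 1.13, without WT DN3, to 1.91.

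From DN1 to DN2 Bmf was lower in 4 of 4 genotypes, by -0.73 ± 0.40 (adjusted p = 0.339). By its brighter probe Bcl2l1 was lower at DN3 than at DN2 in 4 of 4 genotypes, by -0.50 ± 0.23 (adjusted p = 0.811). The brighter Bcl2l11 probe was lower at DN2 than at DN1 in 4 of 4, by -0.29 ± 0.38 (adjusted p = 0.682). Their other probes gave -0.90 ± 0.29 and -0.87 ± 0.40, neither called. That Bcl2l1 probe rose from -1.71 to -1.62 in Ezh2-deleted cells, and that Bcl2l11 probe from -0.77 to -0.70 in p53-deleted cells. The share of all features with the same direction in every genotype was not counted. From DN1 to DN2 the Bik step was -2.65 in WT, whose DN2 reading was not above background. It was -0.84 in Ezh2-deleted, 1.84 in p53-deleted and -0.32 in double-deleted cells, from single arrays. The fits gave -2.70 within slide 1, whose only DN1 array is WT, and 0.50 within slide 2, where the 2 genotypes went opposite ways. The remaining members went in both directions over the genotypes at both steps.

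**Figure D4:**
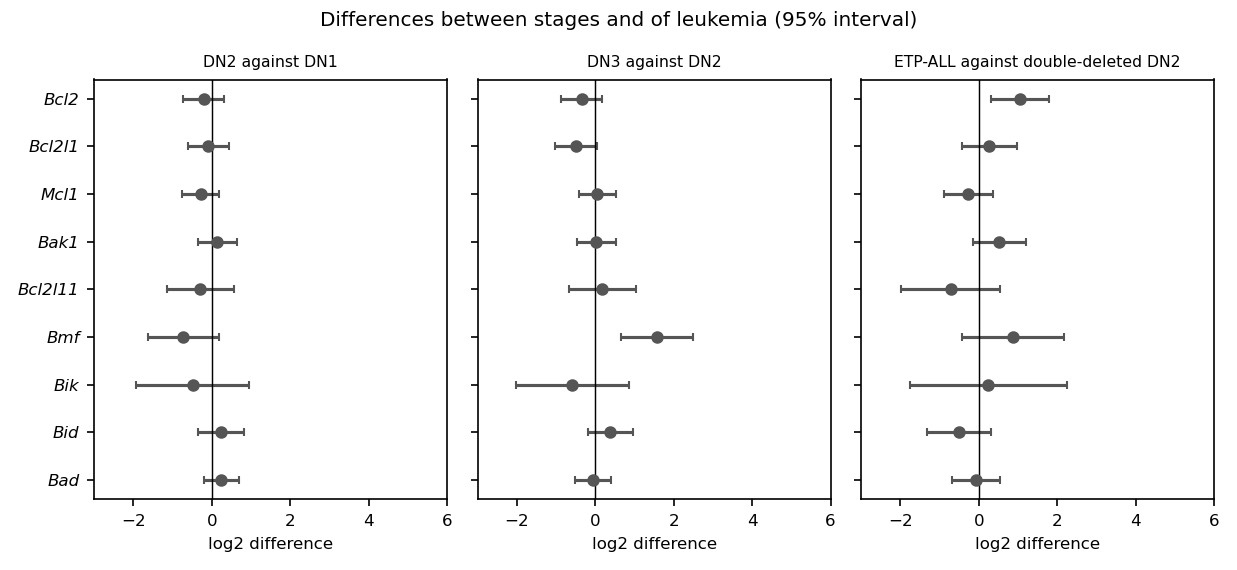
Log2 difference of the 9 tested members between stages (limma fit over 12 arrays) and between the 2 leukemias and the fitted level of double-deleted DN2 cells (14 arrays), with 95% intervals. No member was called; the intervals of Bmf from DN2 to DN3 and of Bcl2 in leukemia lie above 0.

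In the ETP-ALL cells, Bcl2 was higher than in any of the 3 double-deleted arrays. Leukemia 13 read 4.71 and leukemia 19 read 4.19, against 3.29 to 3.46 in double-deleted thymocytes, and leukemia 13 was also above the highest of all 12 non-leukemic arrays (4.50). Against the fitted level of double-deleted DN2 cells (3.40) the leukemias were 1.05 ± 0.33 higher, 2.07-fold, with an unadjusted p of 0.0108 and an adjusted p of 0.143 in limma. Against the single double-deleted DN2 array the difference was 0.99 (adjusted p = 0.435). Over the members, 0 of 9 were called (2.47% of all features) and 1, Bcl2, had an unadjusted p under 0.05, where 17.9% of features did. Both leukemias lie on a slide of their own, so leukemia and slide cannot be told apart.

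The other members lay closer to double-deleted DN2 cells or split between the leukemias. Bak1 read 3.69 and 3.89, above the double-deleted range of 3.21 to 3.25, a difference of 0.52 ± 0.30 (adjusted p = 0.396). Bcl2l1 read 4.70 and 4.64 against 3.91 to 4.46, a difference of 0.26 ± 0.31, and Mcl1 read 4.72 and 4.85 against 4.90 to 5.50, a difference of -0.27 ± 0.28. By these brighter probes both Mcl1 readings were below the double-deleted range and both Bcl2l1 readings above it, but neither difference exceeded its SE. The other Bcl2l1 probe read -2.11 and -1.26, inside its double-deleted range of -2.23 to -1.0. Its difference of -0.4 ± 0.43 was opposite in sign. The other Mcl1 probe gave -0.7 ± 0.38, also not called. The share of all features with leukemic readings outside the double-deleted range is not given here.

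Among the BH3-only genes, Bmf kept the high level of double-deleted cells, at 3.86 and 2.97, a difference of 0.87 ± 0.58. Bcl2l11 read -0.34 in leukemia 13 and -1.41 in leukemia 19, the latter below all 12 non-leukemic arrays, and the difference was -0.72 ± 0.57. Bid read 1.44 and 1.94 against 2.0 to 2.45 in double-deleted cells, a difference of -0.51 ± 0.37. Bik at -1.85 and -0.77 (difference 0.24 ± 0.90) and the brighter Bad probe at 3.49 and 3.51 (difference -0.07 ± 0.27) did not move beyond their errors. The dimmer Bad probe read -1.19 and -0.74, below its double-deleted range of -0.42 to -0.27. Its difference of -0.64 ± 0.34 was not called (adjusted p = 0.347, limma).

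Around the members, 3 lists of related genes were read: other genes of the family (13 of 16 tested), the death pathway downstream of it (16 of 16) and regulators upstream of it (18 of 18). In the other family genes, 6 of 13 rose and 0 fell in Ezh2-deleted cells against WT, where 17.6% of all features were called higher, with a median of 1.04 against 0.16 over all features. The largest were Bcl2l13 (1.59 ± 0.23), Bcl2l12 (1.42 ± 0.31), Bcl2l14 (1.22 ± 0.37) and Bnip3 (1.06 ± 0.19), the last a mitochondrial protein induced by hypoxia. In p53-deleted cells 4 rose and 1 fell, where 36.6% of all features were called, with a median of 1.25 against 0.09. The pore-former relative Bok was 4.60 ± 0.89 higher (adjusted p = 0.00420), with 2 of 3 WT arrays above background, and Bnip3l rose by 1.37 ± 0.24 and Bcl2l13 by 1.25 ± 0.23. Bcl2l14 fell there (-1.76 ± 0.37, adjusted p = 0.00653). In double-deleted cells 0 of 13 were called against WT (7.18% of all features).

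Bcl2l14, an uncommon member of the family, separated the single deletions on the slide they share. It read 1.37, 3.79 and 3.60 in Ezh2-deleted and -0.99, 0.25 and 0.56 in p53-deleted cells, a difference of 2.98 ± 0.37 (adjusted p = 0.00487, limma). It was the single gene of this list called between them, where 3.97% of all features were. Of the 13 tested, 6 were lower in double-deleted than in Ezh2-deleted cells, where 17.1% of all features were, with Bcl2l12 at -1.75, Bcl2l14 at -1.47, Bcl2l13 at -1.16 and the pore former Bax at -1.11. Against p53-deleted cells 6 were lower and 1, Bcl2l14 (1.51 ± 0.37), higher, where 31.6% of all features were called. Among those lower were Bok (-2.69 ± 0.89) and Bnip3l (-1.37 ± 0.24), and Bcl2a1c was also called, though it was above background on 1 of 3 double-deleted and 2 of 3 p53-deleted arrays, so that its size is not known. The Bcl2a1 genes are near-identical copies whose probes may not tell them apart.

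Below the family, 5 of 16 death pathway genes rose in Ezh2-deleted cells and 0 fell, where 17.6% of all features were called higher. They included the initiator caspase gene Casp9 (1.05 ± 0.29), the mitochondrial protease gene Htra2 (1.01 ± 0.25), Casp6 (0.99 ± 0.30) and the caspase inhibitor Xiap (0.90 ± 0.21). In p53-deleted cells 3 of 16 rose, close to the 16.7% of all features called higher, and 0 fell. The 3 were Birc3 (1.64 ± 0.50), Casp9 (0.98 ± 0.29) and Xiap (0.76 ± 0.21). In double-deleted cells 0 of 16 were called against WT, where 7.18% of all features were. Htra2 was lower in double-deleted than in Ezh2-deleted cells (-0.91 ± 0.25), and Birc3 was lower in double-deleted than in p53-deleted cells (-2.0 ± 0.50). The list medians against WT were 0.71, 0.52 and 0.23.

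Among 18 upstream regulators, Myc rose in Ezh2-deleted (0.96 ± 0.28) and p53-deleted cells (0.82 ± 0.28), and the p53 relative Trp73 fell in both (-2.0 ± 0.31 and -1.59 ± 0.31). The interleukin 7 receptor gene Il7r rose in p53-deleted cells by 1.93 ± 0.55 (adjusted p = 0.0241). With Trp53 itself, which was deleted, the counts against WT were 1 higher and 1 lower, 3 and 2, and 0 and 1 of 18 in the Ezh2-deleted, p53-deleted and double-deleted cells, with medians of 0.56, 0.42 and -0.07. Of all features 35.4%, 36.6% and 7.18% were called. In double-deleted cells the interleukin 7 signalling kinase Jak3 and Myc were lower than in Ezh2-deleted cells (-1.57 ± 0.34 and -1.07 ± 0.28) and lower than in p53-deleted cells (-1.16 ± 0.34 and -0.93 ± 0.28). Trp73 was 0.98 ± 0.31 higher than in Ezh2-deleted cells and Il7r was lower than in p53-deleted cells (-1.96 ± 0.55).

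Across stages, 0 genes of the 3 lists were called at either step, where 1.39% (DN1 to DN2) and 0.0223% (DN2 to DN3) of all features were. In leukemia 1 gene of the 3 lists was called, where 2.47% of all features were, on a slide of their own. This gene was Pmaip1, which encodes NOXA, a BH3-only protein that binds MCL1. Pmaip1 read 0.33 and -0.33 in leukemias 13 and 19, below every one of the 12 non-leukemic arrays. The double-deleted arrays read 2.48 to 2.92. The difference from the fitted double-deleted DN2 level was -2.67 ± 0.43 (adjusted p = 0.0143, limma). Here too leukemia and slide cannot be told apart.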

How the data were processed

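Gene expression was read on 14 arrays. Per the file headers, Feature Extraction 10.7.1.1 made the deposited processed signal intensity of each spot, with dim spots set to a small surrogate and no scaling between arrays. Per the labels' protocols, 20 ng of total RNA was amplified and labelled with Cy3. The deposited value table equals these intensities scaled per array (log2 differences with SD 0.000818 to 0.00188), linear and uncentred, with column medians of 0.065 to 0.105. It served as an alternative, and the sources used here do not say how the authors made it.

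Control spots and outlier spots were left out (59305 spots, 55681 probes, 188 missing probe values, no saturated spot). The log2 intensity minus its array's 75th percentile was used. The normexp alternative added an offset of 50 to the intensities. A probe was named where its RefSeq accessions gave 1 symbol in the GRCm38.p6 gene table (28347 probes; 10 had several, 27334 none). The array grid is of mm9, so no probe coordinates are printed. A probe had to be well above background on at least 2 arrays, and the brightest such probe stood for its gene, which left 26909 features and 14422 named genes. Spots not well above background carry only an upper limit. Their floor is the lowest signal among probes above background on that array. The number of arrays limits the precision.

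limma 3.58.1 in R 4.3.3 (lmFit, eBayes) fitted genotype plus stage to the 12 non-leukemic arrays (6 residual degrees of freedom) and added leukemia over all 14 (7). The scripts were tested on simulated data. Alternatives were 4 scalings or background settings, 2 filters, every probe as a feature, slide as a fixed or random term, fits within a slide, the single double-deleted DN2 array as reference, and each array left out. The random term was used where the compared groups share no slide and for leukemia, so it cannot separate slide from group. Its fitted correlation was -0.11, and -0.13 for leukemia. The other probe of a member was added after seeing the data. The members and lists were chosen with earlier results of these data known.

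All 10 members are named. List genes are named where called, at most the 4 with the largest difference per list and comparison. For Bcl2, Bcl2l11 and Mcl1 the 3 named genes of highest correlation are given. Promoter windows are RefSeq sequence of GRCm38.p6, 250 bases before each start, for 9 members. The values of a gene on the death pathway list are not reported here.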

Additional observations from a re-analysis of the deposited data

How the results depend on the processing

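Of the 189 alternative counts of called members, 155 stayed within 1.5 times the main count and 34 moved. The 155 include every alternative for both stage steps, for Ezh2-deleted against p53-deleted cells and for leukemia. There the main count and all alternatives were 0, which counts as unchanged. All 34 that moved belong to the other comparisons, so the 155 overstate how stable the counts are there. Of 1737 alternative member differences, 49 lost a call, 22 gained one, and 11 turned a difference larger than its SE to the other sign or to 0.00. The other 1655 kept their side of the threshold, but 78 of them changed sign, each for an uncalled difference no larger than its SE: 44 with 1 array left out, 4 by the other probe and 30 under other settings. The causes were not tested, beyond that fits within a slide or without an array hold fewer arrays. Fits with slide as a fixed term repeat those without double-deleted DN1, so these counts hold them under both names.

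With no filter on dim probes the p53-deleted count against WT was 1 (Bik), the double-deleted count 1 (Bmf), and the count for double-deleted against Ezh2-deleted cells 2 (Bad and Hrk, the latter above background on no array). With the 75th percentile of probes detected on all arrays these were 1 for double-deleted against WT (Bmf), 2 against Ezh2-deleted cells (Bad, Bmf) and 1 against p53-deleted cells (Bad). With normexp and quantile they were 1, 3 and 3 (Bmf, then Bad, Bcl2l1 and Bmf in both). Against p53-deleted cells, quantile normalization, slide as a random term and a filter of at least 7 arrays each gave 1 (Bad). For double-deleted against WT, slide as a fixed term (the same fit as without double-deleted DN1) gave 0 and slide 1 alone 1 (Bik). Leaving out each array gave 1 to 4 called members for Ezh2-deleted against WT, 1 to 3 for p53-deleted, 0 to 2 for double-deleted, 0 to 2 for double-deleted against Ezh2-deleted and 0 to 1 against p53-deleted cells, and 0 in all such fits for the stages, for Ezh2-deleted against p53-deleted cells and for leukemia.

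The 11 reversals of differences larger than their SE came from the other probe of a member. For Bcl2l11 these were 0.28 (Ezh2-deleted against WT), 0.00 (against p53-deleted), -0.22 (double-deleted against Ezh2-deleted) and 0.13 (leukemia). For Mcl1 they were -0.66 and -0.06 (Ezh2-deleted and p53-deleted against WT), 0.89 and 0.30 (double-deleted against Ezh2-deleted and p53-deleted). Bcl2l1 turned to -0.13 and -0.61 for double-deleted against Ezh2-deleted and p53-deleted cells, and Bad to -0.14 for Ezh2-deleted against p53-deleted cells.

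Over all features, scaling on probes detected on all arrays moved the median difference of Ezh2-deleted cells from WT from 0.16 to -0.07 and the share of calls that were higher from 49.7% to 37.1%. The double-deleted calls against WT went from 1933 (51.7% higher) to 1157 (66.9%) with that scaling and 349 (92.0%) within slide 1. With slide as a fixed term, which repeats the fit without double-deleted DN1, they were 588 (82.1%). Ezh2-deleted against p53-deleted went from 1067 to 89 within slide 2, and double-deleted against Ezh2-deleted from 8297 (44.7% higher) to 20092 (20.4%) with no filter. DN2 against DN1 had 374 calls in full, 161 with a filter of at least 7 arrays and 5 within slide 2, DN3 against DN2 had 6 against 0 to 15 over the settings, and leukemia 664 against 150 with the single array as reference and 1211 with slide as a random term. Leaving out 1 array gave 145 to 2571 calls for DN2 against DN1, 2 to 13 for DN3 against DN2, 422 to 1997 for double-deleted against WT, 282 to 1133 for Ezh2-deleted against p53-deleted, 4074 to 8885 and 4831 to 9084 for double-deleted against Ezh2-deleted and p53-deleted, 6344 to 10130 for Ezh2-deleted against WT and 109 to 832 for leukemia. By replicate number, no paired analysis was possible because every non-leukemic array is replicate 1 of its group, and only the leukemias have a replicate 2. The genotypes are matched by the stage term of the fit.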
